A study of Mus musculus with 6 samples.

Results

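The 36 genes described here carry out mitochondrial fatty acid oxidation and the lipid handling that feeds it, and 35 of them had a row in a table of 21778 genes. They were chosen by name, as the enzymes, carriers and regulators of the pathway, and Fabp4 was not analysed here. Of the 35, 34 passed the filter on low counts and entered the test, while Ucp3 did not. The comparison was between 3 cultures labelled Hdac11 -/- (KO) and 3 labelled wild type (WT), all of primary C57BL/6 mouse myoblasts. The KO line lacks exon 3 of Hdac11 in all cells: mice with loxP sites around that exon were crossed with mice that express Cre under the Sox2 promoter, and WT littermates served as controls. Cells of both groups were isolated from the hindlimb by flow sorting on alpha7-integrin and CD34. They were then held on Matrigel in medium with 2% horse serum for 24 h, day 1 of differentiation, before their poly(A) RNA was sequenced. The series text calls the libraries biological replicates; ages, and how many animals went into each culture, are not given in the labels.

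Fatty acids enter the muscle cell with the help of Cd36, are bound by fatty acid binding proteins and are activated to acyl-CoA by the long-chain synthetases. Carnitine palmitoyltransferase 1 on the outer mitochondrial membrane makes acylcarnitines, the step at which the pathway is held back by malonyl-CoA. Inside, a repeating cycle of dehydrogenation, hydration, a further dehydrogenation and thiolysis shortens the chain, and the electrons of its first step pass through the electron transfer flavoprotein. PPAR nuclear receptors switch on many of these genes when lipid is plentiful or during fasting. Loss of HDAC11, the class IV histone deacetylase, has been reported to raise fatty acid oxidation in muscle, and the question asked of these counts was whether the mRNAs of the pathway differed at day 1.

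Libraries held 16742457 to 22835394 counts, and levels are given as CPM, counts scaled to the TMM-adjusted library size. Hdac11 mRNA was at 33.5, 76.4 and 30.2 CPM in the libraries labelled KO 1, 2 and 3, against 62.99, 79.5 and 73.8 CPM in WT 1, 2 and 3. The library labelled KO 2 was thus within the WT range for the targeted gene, while KO 1 and KO 3 were below it, and this touches every direction given below, since KO means include that library except where stated. The log2 fold change of Hdac11 was -0.63 (SE 0.35), with an edgeR quasi-likelihood adjusted p of 0.3802, and without the library labelled KO 2 it was -1.18. Counts are summed over the whole gene, so they cannot show whether exon 3 itself is missing from any library. Myoblast identity genes (Pax7, Myf5, Myod1, Itga7, Des, Cdh15 and Vcam1) were detected in each library. They summed to 3946 to 4794 CPM in KO and 5428 to 6278 CPM in WT, but did not move together. Des and Itga7 were lower in each KO library than in any WT library, while Pax7 and Vcam1 were higher in each. Means in KO and WT were 1024.5 and 1885.6 CPM for Des and 1270.8 and 1793.3 CPM for Itga7. For Pax7 the means were 106.1 and 67.1 CPM, and for Vcam1 133.1 and 46.9 CPM. Myf5, Myod1 and Cdh15 overlapped between the groups. Markers of the differentiating muscle cell (10 genes led by Myh3) summed to 25603, 12955 and 9296 CPM in the libraries labelled KO 1, 2 and 3, against 22303, 57749 and 46653 CPM in WT 1, 2 and 3, and those of dividing cells (10 of 10 detected) to 1015 to 1565 CPM in KO against 338.3 to 583.8 CPM in WT. The part of these shifts in the lipid gene values was not tested.

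Of the 15 mitochondrial enzymes of the cycle, from the dehydrogenases to Etfdh, 0 were higher in KO at an unadjusted edgeR p under 0.05. That is 0%, where 9.88% of all tested genes were higher. At that p 3 of the 15 were lower (20%, where 7.83% of all tested genes were). The 3 became 0 without KO 3, without WT 2 or with scaling by library totals. The members higher in KO at that p were Cpt1a, at the entry to the cycle, the acyl-CoA thioesterase Acot1 and the lipase inhibitor Angptl4. Lower in KO were Acadvl, Hadhb and Etfb of the cycle, the fatty acid transporter Cd36 and the nuclear receptor Ppara. In edgeR's quasi-likelihood test 3 of the 34 tested genes were higher in KO at an unadjusted p under 0.05 (8.82%, where 9.88% of all 14835 tested genes were) and 5 were lower (14.7%, where 7.83% of all tested genes were). After Benjamini-Hochberg adjustment over all genes edgeR called 0 of the 34 and 0% of all genes, with a smallest adjusted p of 0.158 for Acot1. limma-voom also called 0 of the 34 and 0% of all genes. DESeq2 called Acot1 and Angptl4 higher and Cd36 lower, where it called 4.49% of all genes higher and 2.4% lower. In the authors' deposited table Acot1 and Angptl4 were called, and 6.33% of the 14510 genes with an adjusted p there. The share higher in KO is close to the background. By sign, 22 of the 34 had a negative log2 fold change against 50.8% of all genes, and their median was -0.20 against -0.0086 over all genes.

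**Figure D1:**
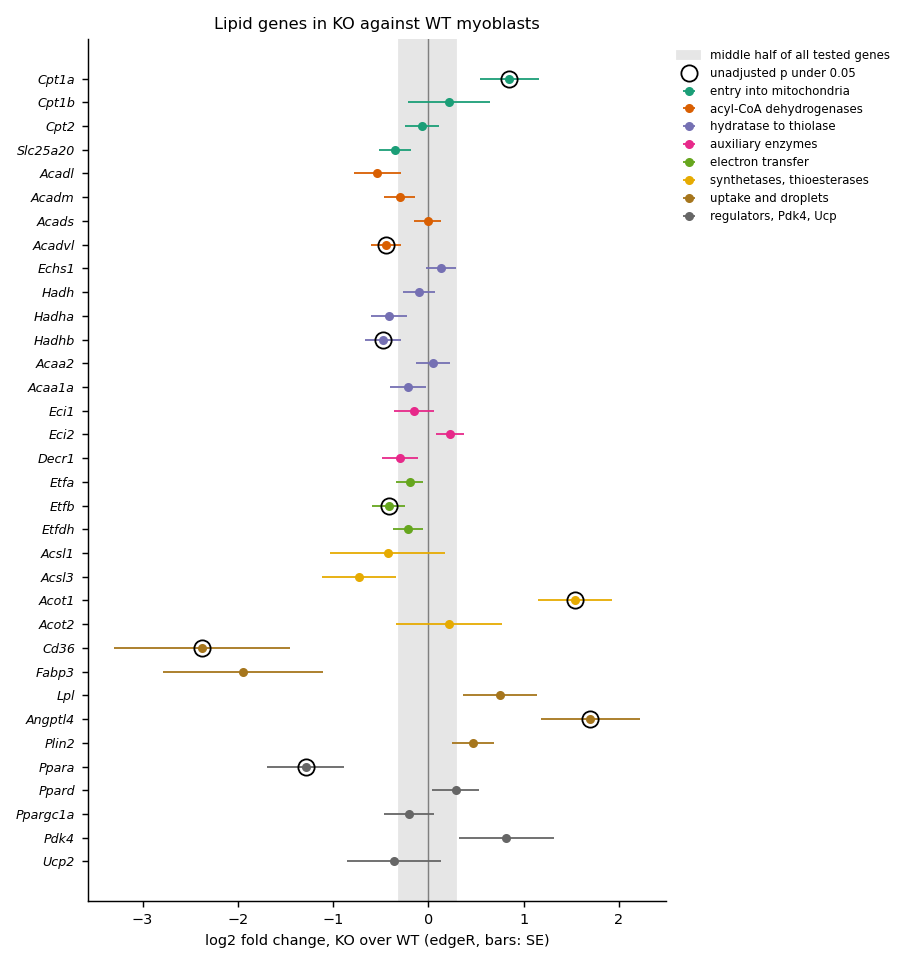
Log2 fold change of KO over WT for the 34 tested genes (horizontal axis; bars are standard errors from edgeR, 3 libraries per group), in rows ordered and coloured by role. The grey band holds the interquartile range of all tested genes and black rings mark an unadjusted p under 0.05. The cycle enzymes lie mostly left of 0, and Acadl, Hadhb, Acadvl, Etfb and Hadha lie left of the band. Cpt1a, Acot1 and Angptl4 lie to the right.

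The entry enzyme of the liver type, Cpt1a, lies on chromosome 19 at 3322326 to 3385735 (GRCm38.p6). Cpt1a was at 106, 163 and 99.9 CPM in the libraries labelled KO 1, 2 and 3, against 95.6, 64.2 and 45.3 CPM in WT 1, 2 and 3. The lowest KO library stood only just above the highest WT library, so the groups did not overlap. The means were 123 ± 35.1 CPM in KO and 68.3 ± 25.4 CPM in WT (SD, n = 3 each). This is a log2 difference of 0.85 (SE 0.31); edgeR gave an unadjusted p of 0.0268 and an adjusted p of 0.233, and an exact two-sided permutation test gave p = 0.1, the smallest that 3 against 3 allows. Without the library labelled KO 2, the highest of the 6, the log2 fold change was 0.59 and the unadjusted edgeR p 0.102, and that p was 0.0671 without WT 2 and 0.0777 without WT 3. The authors' deposited table gives 0.122 as its adjusted p.

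The muscle isoform, Cpt1b, was near the limit of detection, at 17, 24 and 8 counts in the libraries labelled KO 1, 2 and 3 and 18, 10 and 13 counts in WT 1, 2 and 3. That is 0.846, 1.07 and 0.452 CPM in KO against 0.775, 0.582 and 0.688 CPM in WT, with ranges that overlap and a log2 fold change of 0.22 (SE 0.43). Its true level may be higher than counted, since 81.4% of its exon bases in the GENCODE vM1 annotation also belong to Chkb on the same strand and how such reads were assigned is not given in the sources used here. Per kb of transcript the means were 28.6 and 15.9 CPM per kb for Cpt1a in KO and WT, 21.7 and 13.9 for the neuronal isoform Cpt1c, and 0.273 and 0.235 for Cpt1b. Cpt1a was thus the isoform with the highest mean per length in both groups, though Cpt1c stood above it in KO 3, at 23.4 against 23.2 CPM per kb, and in WT 3, at 14.4 against 10.5 CPM per kb.

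The steps behind Cpt1a had negative log2 fold changes, none past an unadjusted p of 0.05 with all libraries. Slc25a20, the translocase that brings acylcarnitines through the inner membrane, was at 35.5, 29.3 and 27.8 CPM in the libraries labelled KO 1, 2 and 3, against 43.4, 39.8 and 34.9 CPM in WT 1, 2 and 3. The highest KO library reached just above the lowest WT library, and the log2 fold change was -0.35 (SE 0.17) with an unadjusted edgeR p of 0.0713, which was 0.0492 without KO 1. Cpt2, which turns acylcarnitines back into acyl-CoA, averaged 25.5 ± 0.867 CPM in KO and 26.6 ± 4.86 CPM in WT (SD, n = 3 each), a log2 fold change of -0.066 (SE 0.18).

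**Figure D2:**
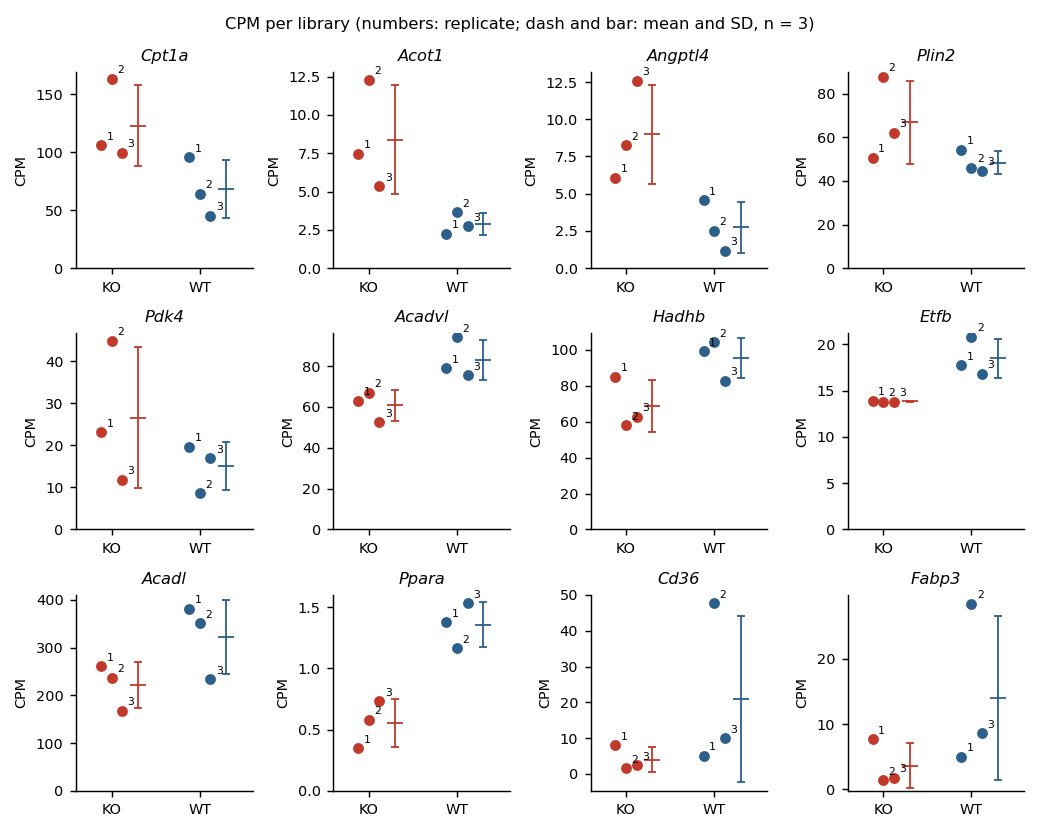
Levels in CPM of 12 of the genes in each library (points, numbered by replicate; KO red on the left, WT blue on the right), with the mean and SD of 3 libraries beside them. Cpt1a, Acot1 and Angptl4 are higher in each KO library than in any WT library, Acadvl, Etfb and Ppara are lower in each, and the WT values of Cd36 and Fabp3 are spread by WT 2.

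Among the acyl-CoA dehydrogenases, which open the cycle for chains of different length, all 4 had a negative log2 fold change. Acadvl, for very long chains, was at 63.03, 67.01 and 52.4 CPM in the libraries labelled KO 1, 2 and 3, against 79.05, 94.03 and 75.5 CPM in WT 1, 2 and 3. Each KO library was below each WT library, and the means were 60.8 ± 7.54 CPM in KO and 82.9 ± 9.82 CPM in WT (SD, n = 3 each). Its log2 fold change was -0.45 (SE 0.16) with an edgeR unadjusted p of 0.0258 and an adjusted p of 0.231. Without WT 2 the log2 fold change was -0.35 and the unadjusted edgeR p 0.0886, while that p was 0.0536 without KO 1 and 0.0897 without KO 3. With scaling by library totals they were -0.29 and 0.128. In the same annotation 42.9% of the exon bases of Acadvl are also covered by Dvl2 on the opposite strand, and whether the counting used strand is not given in the sources used here.

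Acadl, for long chains, was the most abundant cycle enzyme per length, at 116 CPM per kb in KO and 168 in WT. It was at 260.4, 237 and 167 CPM in the libraries labelled KO 1, 2 and 3, against 381, 351 and 234 CPM in WT 1, 2 and 3, with WT 3 inside the KO range. Its fold change on the log2 scale was -0.54 (SE 0.25), with an unadjusted p of 0.0636 in edgeR, and without WT 3 they were -0.71 and 0.0207. Acadm, for medium chains, averaged 59.1 ± 9.34 CPM in KO and 72.7 ± 5.86 CPM in WT (SD, n = 3 each), a log2 fold change of -0.30 (SE 0.16), and without the library labelled KO 2 it was -0.43 with an unadjusted edgeR p of 0.03596. Acads, for short chains, averaged 42.02 ± 3.27 CPM in KO and 42.3 ± 3.197 CPM in WT (SD, n = 3 each), with a log2 fold change of -0.0083, which becomes 0.14 with scaling by library totals.

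The later steps of the cycle for long chains are carried out by the mitochondrial trifunctional protein, whose subunits Hadha and Hadhb are encoded side by side on chromosome 5, at 30119423 to 30154980 and 30155253 to 30184593 (GRCm38.p6). Hadhb, the thiolase subunit, was at 84.99, 57.98 and 62.7 CPM in the libraries labelled KO 1, 2 and 3, against 99.2, 104 and 82.9 CPM in WT 1, 2 and 3. Hadha, the hydratase and dehydrogenase subunit, was at 191, 134 and 138 CPM in KO against 211, 226 and 179 CPM in WT, replicates 1 to 3 in each group. In both genes WT 2 was highest and the library labelled KO 2 lowest, and KO 1 overlapped the lowest WT library. The log2 fold changes were -0.48 (SE 0.19) for Hadhb and -0.41 (SE 0.19) for Hadha, with unadjusted edgeR p of 0.0372 and 0.0636 and adjusted p of 0.254 and 0.306. Without the library labelled KO 2 the unadjusted edgeR p of Hadhb was 0.119, and without KO 3, WT 1 or WT 2 it was 0.112, 0.0914 and 0.101. That of Hadha was 0.0157 without KO 1.

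The enzymes for shorter chains had small log2 fold changes. Echs1, the short-chain enoyl-CoA hydratase, averaged 47.8 ± 5.74 CPM in KO and 43.7 ± 4.31 CPM in WT (SD, n = 3 each). Hadh, the hydroxyacyl-CoA dehydrogenase of the matrix, averaged 55.2 ± 3.68 CPM in KO and 59.1 ± 10.1 CPM in WT (SD, n = 3 each). The thiolase Acaa2 averaged 40.8 ± 7.69 CPM in KO and 39.3 ± 2.34 CPM in WT (SD, n = 3 each). Their log2 fold changes were 0.13, -0.10 and 0.053, none past an unadjusted p of 0.05. That of Hadh was 0.05 with scaling by library totals, and that of Acaa2 was -0.06 without the library labelled KO 2. The peroxisomal thiolase Acaa1a averaged 42.8 ± 5.96 CPM in KO and 49.6 ± 9.22 CPM in WT (SD, n = 3 each), and 34.1% of the 50-base words of its transcript also occur in Acaa1b, so reads could be shared between them.

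Auxiliary enzymes reshape double bonds so that unsaturated chains can enter the cycle. Eci2, an isomerase of mitochondria and peroxisomes, was at 42.1, 46.3 and 51.6 CPM in the libraries labelled KO 1, 2 and 3, against 40.9, 41.8 and 37.2 CPM in WT 1, 2 and 3. The KO libraries were all just above the WT libraries, by 0.22 (SE 0.15) on the log2 scale, with an unadjusted edgeR p of 0.167. The isomerase Eci1 was at 20.2, 19.9 and 17.9 CPM in KO against 25.1, 23.1 and 16.04 CPM in WT, with overlapping ranges, and the dienoyl-CoA reductase Decr1 averaged 31.04 ± 3.701 CPM in KO and 38.2 ± 7.96 CPM in WT (SD, n = 3 each). Their log2 fold changes were -0.15 and -0.30.

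The electron transfer flavoprotein collects electrons from the acyl-CoA dehydrogenases, and Etfdh hands them to ubiquinone. Its beta subunit, Etfb, was at 13.9, 13.8 and 13.8 CPM in the libraries labelled KO 1, 2 and 3, against 17.7, 20.8 and 16.8 CPM in WT 1, 2 and 3. The KO libraries were all below WT, and the log2 fold change was -0.42 (SE 0.18) with an unadjusted edgeR p of 0.04697 and an adjusted p of 0.276. The KO values rest on 279, 309 and 244 counts, and such counts carry more counting error than the closeness of these values shows. Leaving out any 1 of the 6 libraries put its unadjusted edgeR p above 0.05, at up to 0.224 over all alternatives. The alpha subunit, Etfa, was at 119.5, 129.9 and 112 CPM in KO against 153, 133 and 129 CPM in WT, and Etfdh at 60.9, 67.5 and 53.4 CPM in KO against 71.95, 77.7 and 61.5 CPM in WT. In both, KO 3 was lowest and the groups overlapped, with log2 fold changes of -0.20 (SE 0.14) and -0.22 (SE 0.16). Over the 15 mitochondrial enzymes from the dehydrogenases to Etfdh, 12 had a negative log2 fold change and the median was -0.22. Scaling by library totals, which moves the median of all genes to 0.14, gave 10 of 15 negative, a median of -0.06 and 0 genes at an unadjusted p under 0.05 in edgeR, and relative to the median of all genes the list stood at -0.20 there and -0.21 as reported. Relative to all genes it stood at -0.13 without KO 3, -0.12 without WT 1 and -0.32 without WT 3, and its own median was -0.10 without WT 1. The median over these enzymes of the level centred on each gene's mean (log2 CPM) was -0.09, -0.02 and -0.27 in the libraries labelled KO 1, 2 and 3, against 0.20, 0.19 and -0.08 in WT 1, 2 and 3, so WT 3 lay inside the KO range. Of the 15, 3 were lower at an unadjusted p under 0.05 as reported (20%, beside 7.83% of all tested genes), against 0 without KO 3 and 0 without WT 2. Over all genes, both directions together, the number at that p was 2626 as reported, 1338 without KO 3 and 1609 without WT 2.

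**Figure D3:**
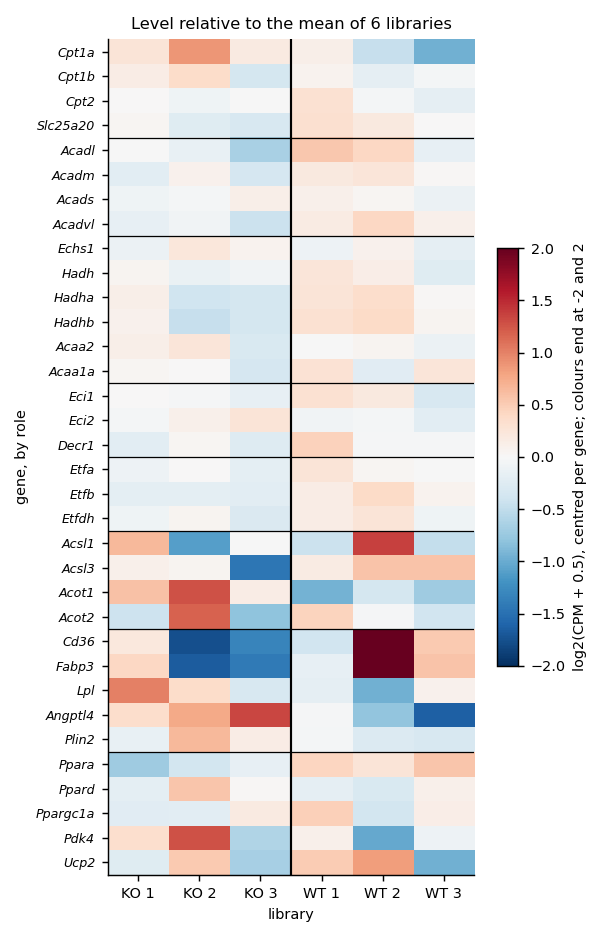
Level of each tested gene in each library (columns, KO left of WT) as log2(CPM + 0.5) minus the gene's mean over the 6 libraries, in rows ordered by role with lines between roles. Cd36 and Fabp3 are highest in WT 2 and have the widest spread, while Cpt1a, Acot1, Acot2 and Pdk4 are highest in the library labelled KO 2.

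Acot1 and Acot2 encode acyl-CoA thioesterases, of the cytosol and of mitochondria, that split acyl-CoA back into free fatty acid. They lie near each other on chromosome 12, at 84009502 to 84017670 and 83987861 to 83993877 (GRCm38.p6), and their coding sequences are identical at 95.6% of aligned bases, while the stretches before their starts are less alike. Those stretches, 250 bases before each start on the plus strand in RefSeq's GRCm38.p6, are shown because the pair differed in its values, and that of Cpt1a is shown beside them; capitals mark the nuclear receptor hexamer AGGTCA or the E-box CAGCTG on either strand.
Acot1, chr12:84009252-84009501: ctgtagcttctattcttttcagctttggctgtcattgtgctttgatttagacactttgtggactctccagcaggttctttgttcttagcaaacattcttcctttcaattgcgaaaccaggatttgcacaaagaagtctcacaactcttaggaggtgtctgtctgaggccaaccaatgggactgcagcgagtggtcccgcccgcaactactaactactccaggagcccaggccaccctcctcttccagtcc
Acot2, chr12:83987611-83987860: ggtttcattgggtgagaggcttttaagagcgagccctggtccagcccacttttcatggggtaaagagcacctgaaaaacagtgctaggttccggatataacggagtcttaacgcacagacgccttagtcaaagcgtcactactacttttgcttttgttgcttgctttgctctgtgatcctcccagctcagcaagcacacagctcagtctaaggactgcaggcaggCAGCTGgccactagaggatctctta
Cpt1a, chr19:3323051-3323300: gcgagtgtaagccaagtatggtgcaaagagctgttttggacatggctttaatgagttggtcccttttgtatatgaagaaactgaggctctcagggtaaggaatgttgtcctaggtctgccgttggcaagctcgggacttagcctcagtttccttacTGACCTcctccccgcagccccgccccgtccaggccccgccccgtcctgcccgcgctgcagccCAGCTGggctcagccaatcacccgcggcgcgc
The Acot1 and Acot2 windows were identical at 55.7% of 228 aligned bases, and no other pair of promoters was aligned for comparison. The Acot1 window holds neither motif, the Acot2 window holds an E-box starting 25 bases before the start, and the Cpt1a window holds a hexamer and an E-box that start 94 and 32 bases before it. RefSeq's gene record of Cpt1a begins upstream of this window. Promoters of 30 of the 36 genes were available, 31 windows in all. Those of Angptl4, Cpt1b, Acaa2, Decr1, Lpl and Fabp4 were not. The hexamer was in 22.6% of them against 14% of all 32851 promoters, the E-box in 25.8% against 13%, and the full PPAR response element, a direct repeat of the hexamer with 1 base between, in 0 against 0.0335%. The hexamer is thus part of the full element, and both strands were searched. Only 11 of all promoters held the full element as exact letters, so 0 of 31 windows cannot show that these genes lack it. The motif results are matches of letters only, and the part of these sequences in the expression values was not tested.

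Acot1 was at 7.47, 12.3 and 5.37 CPM in the libraries labelled KO 1, 2 and 3, against 2.24, 3.67 and 2.75 CPM in WT 1, 2 and 3. Each KO library exceeded each WT library, and the means were 8.38 ± 3.56 CPM in KO and 2.89 ± 0.724 CPM in WT (SD, n = 3 each). The log2 fold change was 1.54 (SE 0.39), with an edgeR unadjusted p of 0.00467, an edgeR adjusted p of 0.158 and a DESeq2 adjusted p of 0.00906. The authors' deposited table gives 0.00631. Without the library labelled KO 2 the log2 fold change was 1.16 and the DESeq2 adjusted p 0.0813.

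Acot2 was at 5.97, 19.1 and 4.46 CPM in the libraries labelled KO 1, 2 and 3, against 11.3, 8.04 and 6.14 CPM in WT 1, 2 and 3, with WT inside the KO range. It was highest in the library labelled KO 2, which alone gave the KO mean its lead: the log2 fold change was 0.22 (SE 0.55) with it and -0.70 without it. As 34.9% of the 50-base words of the Acot1 transcript also occur in Acot2, reads of the pair could be split between them, and both values carry that uncertainty.

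Long-chain acyl-CoA synthetases activate fatty acids for oxidation or storage. Acsl3, an enzyme of the endoplasmic reticulum and lipid droplets and by group means the most abundant of the family per length, was at 412, 396 and 139.9 CPM in the libraries labelled KO 1, 2 and 3, against 429, 568 and 570.3 CPM in WT 1, 2 and 3. The KO libraries were all below WT, with KO 3 far below the other KO libraries (there Acsl4 stood above it, at 60.9 against 43.8 CPM per kb), and the log2 fold change was -0.73 (SE 0.39) with an unadjusted edgeR p of 0.101. Acsl1, the form best known in oxidative tissues, was at 58.2, 17.04 and 36.8 CPM in KO against 27.5, 96.4 and 26.6 CPM in WT. The groups overlapped: WT 2 was highest and KO 1 second, and without WT 2 the log2 fold change of -0.42 (SE 0.60) became 0.46.

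For uptake and transport inside the cell, Cd36 and Fabp3 had the lowest fold changes of the 34 genes and the widest errors. Cd36, the fatty acid transporter of the plasma membrane, was at 7.97, 1.66 and 2.43 CPM in the libraries labelled KO 1, 2 and 3, against 5.12, 47.6 and 9.95 CPM in WT 1, 2 and 3. KO 1 lay between WT 1 and WT 3, so the groups overlapped, and WT 2 was several times above every other library. The log2 fold change was -2.38 (SE 0.93), with an unadjusted edgeR p of 0.0354 and an adjusted p of 0.2499. DESeq2 gave an adjusted p of 0.0406 and the authors' deposited table has 0.2103. Unadjusted edgeR p was 0.105 without the library labelled KO 2 and 0.106 without KO 3. Without WT 2 the log2 fold change was -0.91 and the unadjusted edgeR p 0.229, and the DESeq2 adjusted p was 0.6895. Without the library labelled KO 2 the DESeq2 adjusted p was 0.1701, and without KO 3 it was 0.591 and without WT 3 0.192.

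Fabp3, the fatty acid binding protein of heart and skeletal muscle, was at 7.67, 1.43 and 1.81 CPM in the libraries labelled KO 1, 2 and 3, against 4.995, 28.5 and 8.63 CPM in WT 1, 2 and 3. The order of the 6 libraries was that of Cd36, with WT 2 highest and the libraries labelled KO 2 and KO 3 lowest. Its log2 fold change was -1.94 (SE 0.84) with an unadjusted edgeR p of 0.0513 and an adjusted p of 0.286. Without WT 2 the log2 fold change was -0.90, while without KO 1 or WT 1 the unadjusted edgeR p was 0.00781 and 0.0253. Embryonic myosin, Myh3, was likewise highest in WT 2, at 30671 CPM, and lowest in KO 3, at 3661 CPM, with KO 1 at 11127 above WT 1 at 8567 CPM. Its part in the Cd36 and Fabp3 values was not tested. In RNA from a whole culture, fewer cells that express a gene and less RNA per cell cannot be told apart.

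Cd36 is also made by endothelial cells, adipocytes and macrophages, so their markers are given beside it. Of 8 endothelial markers 2 reached a mean of 1 CPM, and the list summed to 3.09 to 6.61 CPM in KO and 3.1 to 3.71 CPM in WT. Those at that mean were Pecam1 and Egfl7, at up to 2.88 and 2.60 CPM, both in KO 3. Egfl7 was higher in each KO library than in any WT library. Tek reached 1.59 CPM in WT 3, while Kdr and Cdh5 were at or below 0.529 CPM in every library. Of 8 macrophage markers 3 reached 1 CPM, summing to 6.89 to 8.81 CPM in KO and 6.85 to 19.4 CPM in WT; Csf1r was at most 0.0895 CPM, while Itgam was at 14.3 CPM in WT 2. Of 9 adipocyte markers 3 (Pparg, Cebpa and Lipe) had a row, summing to 10.4 to 21.2 CPM in KO and 6.46 to 13.9 CPM in WT. The other 6 (Adipoq, Cfd, Plin1, Lep, Retn and Cidec) had no row, so that sum does not include them. The fibroblast and progenitor list summed to 2.15 to 3.98 CPM in KO and 3.66 to 6.23 CPM in WT. The pericyte and smooth muscle list summed to 31.6 to 80.6 CPM in KO and 93.4 to 308.2 CPM in WT, highest in WT 2. Most of the WT 2 sum was its member Abcc9, a potassium channel subunit that muscle also expresses, at 281.7 CPM. Pdgfrb, Cspg4 and Myh11 were also highest in WT 2, at 16.01, 6.93 and 1.28 CPM, while Rgs5 was lowest there, at 2.27 CPM. In WT 2, where Cd36 was highest, Kdr, Cdh5 and Csf1r were at 0.117, 0.233 and 0.0582 CPM. Pecam1, Egfl7 and Tek were at 0.524, 1.40 and 0.873 CPM there. WT 2 was the highest library for Kdr and for Lyz2 of the macrophage list, at 2 counts each. The macrophage list had its highest sum there, with Itgam and Mrc1 (3.38 CPM) both at their highest, but its member Cd68 was at its lowest, at 1.51 CPM. The part of these cell types in the Cd36 values was not tested.

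Angptl4, a secreted inhibitor of lipoprotein lipase and a well-known PPAR target, was at 6.07, 8.28 and 12.6 CPM in the libraries labelled KO 1, 2 and 3, against 4.56, 2.504 and 1.16 CPM in WT 1, 2 and 3. All KO libraries were above all WT libraries, and the means were 8.98 ± 3.32 CPM in KO and 2.74 ± 1.71 CPM in WT (SD, n = 3 each). Its log2 fold change was 1.70 (SE 0.52), the largest positive one of the 34, with an edgeR unadjusted p of 0.0125 and adjusted p of 0.201. DESeq2 gave an adjusted p of 0.0264 and the authors' deposited table has 0.0213. Over the 13 alternatives that bear on single genes its unadjusted p stayed under 0.05, at most 0.0482, with log2 fold changes of 1.34 to 2.31. In DESeq2 its adjusted p was 0.0846 without the library labelled KO 2, 0.337 without KO 3, 0.148 without WT 2 and 0.0723 without WT 3.

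Its target Lpl, which frees fatty acids from lipoproteins at the cell surface, averaged 33.4 ± 15.02 CPM in KO and 19.8 ± 6.897 CPM in WT (SD, n = 3 each). The groups overlapped, as KO 3 was below WT 1 and WT 3, and the log2 fold change was 0.75 (SE 0.39). Without KO 3 the unadjusted edgeR p of Lpl was 0.02497. Plin2, the coat protein of lipid droplets and per length the most abundant of the uptake and droplet genes, was at 50.5, 87.7 and 62.02 CPM in the libraries labelled KO 1, 2 and 3, against 54.2, 46.1 and 44.6 CPM in WT 1, 2 and 3. KO 1 was below WT 1, so the groups overlapped. For Plin2 the log2 fold change was 0.47 (SE 0.22) with an unadjusted edgeR p of 0.0701, and without the library labelled KO 2 it was 0.22. Without KO 1 it was 0.63 with an unadjusted edgeR p of 0.0231.

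Among the receptors, Ppara, the PPAR best known for driving fatty acid oxidation in liver and heart, was scarce. It had 7, 13 and 13 counts in the libraries labelled KO 1, 2 and 3 and 32, 20 and 29 counts in WT 1, 2 and 3. That is 0.348, 0.582 and 0.734 CPM in KO against 1.38, 1.17 and 1.53 CPM in WT, each KO library below each WT library. The log2 fold change was -1.29 (SE 0.41), with an edgeR unadjusted p of 0.0141 and an adjusted p of 0.204. DESeq2 gave an adjusted p of 0.167 and the authors' deposited table has 0.153. Without KO 1 its unadjusted edgeR p was 0.0627. Ppard, the form most used in muscle, was at 15.7, 26.8 and 18.2 CPM in the libraries labelled KO 1, 2 and 3, against 15.8, 14.6 and 19.4 CPM in WT 1, 2 and 3. Its ranges overlapped and the log2 fold change was 0.28 (SE 0.25). Per kb of transcript Ppard stood at 6.29 CPM per kb in KO and 5.16 in WT, against 0.163 and 0.398 for Ppara and 0.889 and 0.941 for Pparg.

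Ppargc1a, the coactivator of mitochondrial biogenesis, was at 13.4, 13.5 and 17.96 CPM in the libraries labelled KO 1, 2 and 3, against 22.2, 12.1 and 17.3 CPM in WT 1, 2 and 3. WT 1 was highest and WT 2 lowest, with the KO libraries between them. Its log2 fold change was -0.20 (SE 0.26), and 0.04 without WT 1. Pdk4, the kinase that shuts pyruvate out of the mitochondrial oxidation chain when fatty acids are burned, was at 23.1, 44.8 and 11.8 CPM in the libraries labelled KO 1, 2 and 3, against 19.6, 8.68 and 16.9 CPM in WT 1, 2 and 3. The library labelled KO 2 stood alone at the top and KO 3 lay within the WT range, so that the log2 fold change was 0.82 (SE 0.50) with it and 0.21 without it. Without KO 3 the log2 fold change of Pdk4 was 1.19 with an unadjusted edgeR p of 0.0305. As reported, neither gene reached an unadjusted p of 0.05 in edgeR.

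Of the uncoupling proteins, Ucp2 averaged 15.4 ± 6.78 CPM in KO and 19.8 ± 10.7 CPM in WT (SD, n = 3 each), a log2 fold change of -0.37 (SE 0.49). Ucp3, the form typical of mature muscle, had 2, 4 and 0 counts in the libraries labelled KO 1, 2 and 3 and 0, 7 and 2 counts in WT 1, 2 and 3. A count of 0 allows up to 3 counts, or 0.1695 CPM in KO 3 and 0.129 CPM in WT 1, and no difference was detectable at this depth. Such limits cover counting error only.

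The library labelled KO 2, the one with Hdac11 in the WT range, had the highest level of the 6 libraries for 9 of the 34 genes, or 26.5%, against 15.3% of all tested genes. These were Cpt1a, Cpt1b, Echs1, Acaa2, Acot1, Acot2, Plin2, Ppard and Pdk4. WT 2 was highest for 10 of the 34, or 29.4%, against 25.1% of all tested genes. KO exceeded WT without overlap for 4 of the 34 (11.8%, where 13.2% of all tested genes did so) and was below it without overlap for 4 (11.8%, where 10.2% did). The 4 higher were Cpt1a, Eci2, Acot1 and Angptl4, and the 4 lower Acadvl, Etfb, Acsl3 and Ppara.

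A wider list of 91 other genes of fatty acid oxidation, activation, storage and their control was read the same way. Of these, 85 had a row and 77 were tested. With edgeR, 8 were higher in KO at an unadjusted p under 0.05, or 10.4%, and 10 lower, or 13%, beside the same 9.88% and 7.83% of all genes, and it called 0 after adjustment. DESeq2 called 4 higher and 4 lower, beside 4.49% and 2.4% of all genes, and limma-voom called 0. The median log2 fold change was -0.10. By group, the other oxidation genes had 2 higher and 5 lower of 27 at an unadjusted p under 0.05, the activation and binding genes 4 higher and 1 lower of 13, the storage genes 2 higher and 0 lower of 17, and the regulators 0 higher and 4 lower of 20.

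Other isoforms of families already described stood among the higher genes, such as Cpt1c, Acsl5 and Fabp5, and among the lower, such as Acsl6 and Pdk2. Slc27a3, a fatty acid transport protein with acyl-CoA synthetase activity, was at 31.7, 20.9 and 36.7 CPM in the libraries labelled KO 1, 2 and 3, against 14.6, 13.4 and 11.1 CPM in WT 1, 2 and 3. Cpt1c was at 49.7, 65.5 and 64.6 CPM in KO against 36.7, 38.2 and 39.7 CPM in WT, and Acsl5, a synthetase of mitochondria and endoplasmic reticulum, at 41.5, 36.99 and 44.7 CPM in KO against 27.9, 17.8 and 24.2 CPM in WT. In all 3 genes each KO library was above each WT library, with log2 fold changes of 1.19 (SE 0.25), 0.65 (SE 0.16) and 0.82 (SE 0.20) and edgeR adjusted p of 0.138, 0.156 and 0.156. The DESeq2 adjusted p were 0.00237, 0.0242 and 0.0198. Fabp5, the epidermal type of fatty acid binding protein, was at 38.6, 21.1 and 59.4 CPM in KO against 19.1, 8.79 and 17.1 CPM in WT, 1.40 (SE 0.42) on the log2 scale, with a DESeq2 adjusted p of 0.0278. Per kb, Fabp5 stood at 40.2 CPM per kb in KO and 15.2 in WT, while Fabp3 stood at 4.42 in KO and 17.1 in WT. Lipg, a lipase of lipoproteins, and the cytosolic thioesterase Acot7 had log2 fold changes of 1.58 (SE 0.62) and 0.51 (SE 0.21), with ranges that overlapped. The other higher genes at an unadjusted p under 0.05 were G0s2, an inhibitor of triglyceride lipase, and Crot, the carnitine octanoyltransferase of peroxisomes, with log2 fold changes of 0.85 (SE 0.35) and 0.38 (SE 0.16). Over the 13 alternatives Slc27a3, Cpt1c, Acsl5 and Fabp5 stayed under an unadjusted p of 0.05 in all 13, Acot7 in 9, Lipg and G0s2 in 8 each and Crot in 5.

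**Figure D4:**
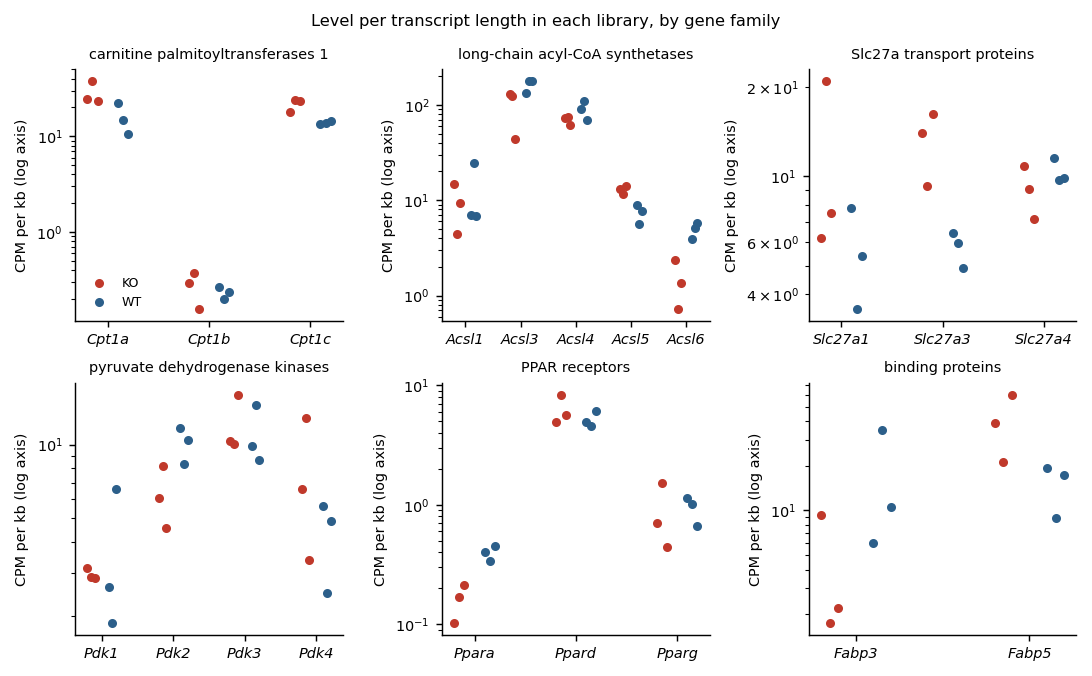
Level per transcript length (CPM per kb, log axis) in each library for 6 gene families, KO (red) left of WT (blue) for each gene. Cpt1a and Cpt1c lie far above Cpt1b and Ppard far above Ppara, and Fabp5 is higher and Fabp3 mostly lower in KO than in WT.

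On the lower side, Acsl6, a synthetase best known in brain, was at 13.6, 4.16 and 7.79 CPM in the libraries labelled KO 1, 2 and 3, against 22.9, 29.4 and 33.8 CPM in WT 1, 2 and 3. Prkaa2, a catalytic subunit of AMP-activated kinase, was at 38.98, 27.1 and 16.4 CPM in KO against 54.8, 181 and 73.8 CPM in WT. Nrip1, a corepressor of nuclear receptors in metabolic genes, was at 56.8, 43.4 and 46.03 CPM in KO against 69.6, 137 and 72.7 CPM in WT. Each was lower in every KO library than in any WT library, though in Prkaa2 and Nrip1 WT 2 stood far above the other WT libraries. Their log2 fold changes were -1.75 (SE 0.41), -1.91 (SE 0.50) and -0.94 (SE 0.28), with edgeR adjusted p of 0.147, 0.166 and 0.1996 and DESeq2 adjusted p of 0.001998, 0.00351 and 0.0446. Without WT 2 the log2 fold changes of Prkaa2 and Nrip1 were -1.23 and -0.55. The other catalytic subunit, Prkaa1, was more abundant per length, at 23.3 and 23.0 CPM per kb in KO and WT, against 3.45 and 12.97 for Prkaa2. Prkaa1 had a log2 fold change of 0.017 (SE 0.20), and its groups overlapped.

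Acacb, which makes the malonyl-CoA that holds back carnitine palmitoyltransferase 1 at mitochondria, was at 5.83, 8.28 and 4.24 CPM in the libraries labelled KO 1, 2 and 3, against 9.903, 11.8 and 15.4 CPM in WT 1, 2 and 3. The KO libraries were all below WT, with -1.02 (SE 0.32) for the log2 fold change, and the adjusted p was 0.204 in edgeR and 0.0459 in DESeq2. Crat, the carnitine acetyltransferase, was at 51.7, 59.7 and 44.7 CPM in KO against 67.6, 104 and 67.3 CPM in WT and Pdk2, another pyruvate dehydrogenase kinase, at 13.5, 18.3 and 10.2 CPM in KO against 26.3, 18.7 and 23.4 CPM in WT. Both were lower in each KO library than in any WT library, with log2 fold changes of -0.61 (SE 0.22) and -0.70 (SE 0.26) and edgeR adjusted p of 0.224 and 0.236. At an unadjusted p under 0.05 the lower genes further held Hsd17b4, an enzyme of peroxisomal oxidation, Acat1, a mitochondrial thiolase, and the coactivator Ppargc1b, with log2 fold changes of -0.40 (SE 0.17), -0.58 (SE 0.22) and -0.43 (SE 0.16). Over the same alternatives Acsl6, Prkaa2 and Nrip1 stayed under that p in all 13, Acacb in 12, Crat in 9, Pdk2 and Acat1 in 8 each, Ppargc1b in 7 and Hsd17b4 in 5.

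**Figure D5:**
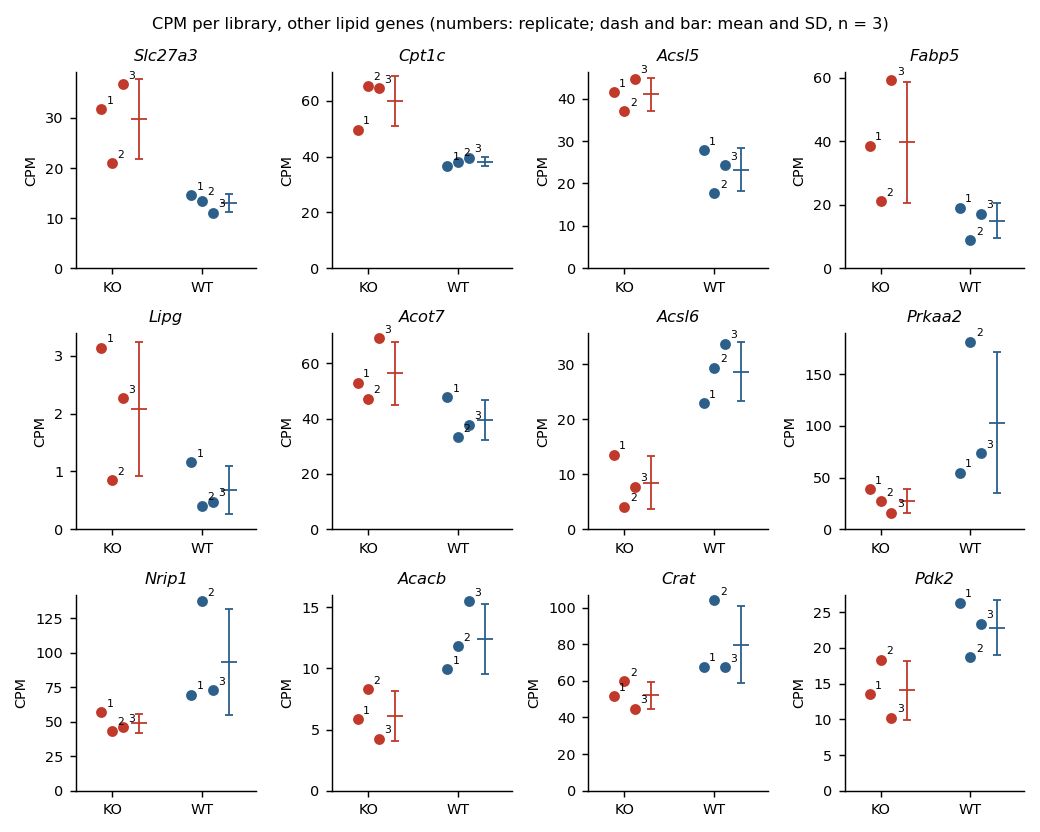
Levels in CPM in each library (points numbered by replicate, KO left of WT, with mean and SD of 3 libraries) of the 6 other lipid genes with the smallest p in each direction. The first 6 panels are higher in KO and the last 6 lower, and Lipg and Acot7 overlap between the groups.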

How the data were processed

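Poly(A) RNA of 3 KO and 3 WT cultures was sequenced, and groups and replicate numbers were taken from the library titles. Per the submitters' processing notes the tools were TopHat2 2.0.8 with Bowtie2, FastQC, Trimmomatic, featureCounts and DESeq2, on GRCm38, with no settings. The table as deposited holds raw counts per gene symbol, not normalized by the authors, beside their own log2 fold changes, p-values and adjusted p-values, per the file headers. Total counts ran from 16742457 to 22835394 per library.

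Here the raw counts were filtered with filterByExpr, which left 14835 of 21778 genes, and scaled by TMM. Quasi-likelihood F tests without covariates came from edgeR 4.0.16 (R 4.3.3). Benjamini-Hochberg adjustment ran over all tested genes with a threshold of 0.05. Standard errors come from the F statistic. Alternatives were limma-voom (limma 3.58.1), DESeq2 1.42.0, other scaling, another filter, a replicate block and each library left out; DESeq2 with a library left out was added after seeing the data. The fits were tested on simulated counts drawn independently for each gene, so shifts shared by many genes of a library were not covered. CPM per kb divides by the length of 1 GENCODE vM1 transcript per gene, that with the longest coding sequence. Older symbols were matched through RefSeq.

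The members and lists were chosen with earlier results of these data known. Library values are given for genes with an unadjusted edgeR p under 0.05 or a DESeq2 call, for the 2 most abundant per length in each role, and for Cpt1a, Cpt1b, Ppara, Ppargc1a, Pdk4 and Ucp3; Acot2 was added as the pair of Acot1. From the wider list, up to 6 genes per direction with the smallest p are given, and the others past an unadjusted p of 0.05 by fold change only, except 1 that is not reported here.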

Additional observations from a re-analysis of the deposited data

How the results depend on the processing

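Depth limits Ppara, Cpt1b and Ucp3, which had few counts. Cd36 had 37 to 818 counts per library. For all changes listed here the cause was not tested. Of the 8 members at an unadjusted p under 0.05 Acot1 and Angptl4 stayed there in all 13 alternatives that bear on single genes, Ppara in 12, Cpt1a in 10, Acadvl in 9, Hadhb in 8, Cd36 in 8 and Etfb in 3.

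Members called over all genes were 0 in edgeR, 3 in DESeq2 and 2 in the authors' deposited table, and 0 to 6 in DESeq2 with 1 library left out. Members higher at an unadjusted p under 0.05 were 3, and 2 to 5 with a library left out (5 without KO 3, also in DESeq2). Members lower were 5, but 3 with limma-voom, 3 with library totals only, and 1 to 5 in edgeR and 1 to 8 in DESeq2 with a library left out, the 1 without KO 3 or WT 2. The wider list had 4 to 10 higher and 4 to 12 lower with a library left out and 4 lower with library totals. The median log2 fold change of the members was -0.20, -0.055 with library totals (0.14 over all genes) and -0.23 to -0.050 with a library left out in edgeR, -0.25 to -0.074 in DESeq2. All tested genes at an unadjusted p under 0.05 numbered 2626 in edgeR, and 1338 to 3133 with a library left out.

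Same-numbered libraries did not deviate together (r = -0.27, -0.07 and 0.05 over genes), so the numbers were not taken as pairs. With a replicate block, 3 members were higher and 4 lower, 0 were called, and the median was -0.18; Etfb and Cd36 had an unadjusted edgeR p of 0.0942 and 0.128 and Acadl of 0.0198.

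Log2 fold changes changed sign for 8 genes. With library totals they were 0.14 for Acads, 0.075 for Cpt2 and 0.046 for Hadh. Acads was at 0.0042 without the low-count filter, and Acot2 at -0.014 with limma-voom and -0.051 with the replicate block. With 1 library left out the ranges were -0.061 to 0.053 for Acads, -0.16 to 0.10 for Cpt2, -0.22 to 0.021 for Hadh, -0.065 to 0.50 for Cpt1b, -0.060 to 0.22 for Acaa2, -0.70 to 0.58 for Acot2, -0.40 to 0.035 for Ppargc1a and -0.89 to 0.46 for Acsl1. Single values of note within these are -0.70 for Acot2 without the library labelled KO 2 and 0.46 for Acsl1 without WT 2.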

Other observations

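Some genes of the wider lipid list, chosen after their values were seen, were highest in the library labelled KO 2. Vldlr, the receptor for very low density lipoprotein, was at 15.7, 85.2 and 6.95 CPM in the libraries labelled KO 1, 2 and 3, against 27.0, 23.1 and 20.2 CPM in WT 1, 2 and 3. Slc27a1, a fatty acid transport protein of muscle, was at 17.4, 58.7 and 20.96 CPM in KO against 21.8, 9.96 and 15.03 CPM in WT. The gene of the secreted stress factor Fgf21 was at 30.4, 80.8 and 4.18 CPM in KO against 63.4, 20.1 and 48.1 CPM in WT, and in that gene KO 3 was the lowest of all libraries. In all 3 genes the groups overlapped. Without the library labelled KO 2, both remaining KO libraries were below WT in Vldlr, while in Slc27a1 and Fgf21 they still overlapped WT. None of these genes had an unadjusted edgeR p under 0.05 (0.457, 0.0719 and 0.833).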
